A study of Mus musculus with 3 samples.

Results

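The nuclear-encoded genes of the respiratory chain were followed across cell classes from 3 tissues of injured mice. They were picked by symbol alone, as the genes named *Nduf* with a letter a, b, c, s, or v and a number, the 4 *Sdh* genes, the *Uqcr* genes, the *Cox* genes numbered 4 to 8 with a letter a to c, and the *Atp5* genes. This rule found 82 of the 27998 genes in the count tables, of which 37 belong to complex I, 4 to complex II, 8 to complex III, 16 to complex IV, and 17 to complex V. *Atp5s* and *Atp5sl* came in by symbol and are not core subunits of the ATP synthase. *Ndufab1*, *Cox4i1*, *Cox4i2*, *Cyc1*, *Cycs*, and *Usmg5* were left out by it and are described separately. The libraries came from male C57BL/6J mice of 10 weeks, 3 days after burn/tenotomy, in which a burn to the back is combined with a full cut of the Achilles tendon. There was 1 single-cell library each from bone marrow flushed from femurs, from the mononucleated cells of a blood density gradient, and from the tendon injury site, and every mouse was injured, so that no uninjured group is compared here. Red cells were lysed in marrow and blood, and only the tendon was digested with enzymes. With 1 library per tissue no test could be made, no p-value is given, and tissue, preparation, and library are 1 and the same difference here and cannot be told apart.

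The respiratory chain sits in the inner mitochondrial membrane. Complex I takes electrons from NADH and complex II takes them from succinate, complex III passes them on to cytochrome c, complex IV hands them to oxygen, and complex V, the ATP synthase, uses the proton gradient that results. Each complex except complex II is built from subunits of both genomes, with a few core subunits encoded by mitochondrial DNA and the others imported from the cytosol. Neutrophils are known for few mitochondria and for a reliance on glycolysis, whereas their dividing precursors, monocytes, and stromal cells hold more of the respiratory machinery.

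Expression was measured as unique molecular identifiers (UMIs), each of which stands for 1 captured transcript, summed over the cells of a class and given per 1000000 UMIs of the same cells (CPM). All intervals are 95% intervals and cover counting error only. The libraries held 1855, 2241, and 5629 barcodes for marrow, blood, and tendon, with 49580625, 22542581, and 90621052 UMIs, and 1813, 2146, and 4780 cells remained after filtering. Pairs of libraries shared 1 to 6 cell barcodes. Cells were named from marker genes, and in each neutrophil class 13 of the 13 neutrophil markers were highest there, whereas 3 of 6 markers of the marrow progenitors were highest in that class. These are the markers that named the cells, so that the counts are no independent check of the names. A total of 118, 17, and 312 cells matched no class, and 125, 41, and 430 named cells lay near the border between classes. Of the 82 genes, 78 had a UMI in marrow, 78 in blood, and 82 in tendon, and 77, 76, and 79 had at least 100 UMIs there. Many of these genes have near-identical pseudogene copies, so that reads which match a copy equally well may be missing from a count.

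Neutrophils held the smallest share of respiratory chain transcripts among the classes of at least 50 cells in each library. The largest share was held by progenitors in marrow, monocytes in blood, and keratinocytes at the tendon injury site. In bone marrow the 82 genes together stood at 12877 CPM (12836 to 12918) in 1183 neutrophils, 22260 CPM in 54 B cells, 26588 CPM in 323 monocytes/macrophages, and 27746 CPM in 74 progenitors. The 20 leading genes of each of these classes took up 51.2%, 17.3%, 15.1%, and 13.3% of its UMIs, in the same order. UMIs of the 82 genes per cell were 324, 188, 741, and 1246, so that B cells were lowest by that measure. Leading genes took up 52.7% in blood and 41.9% in tendon neutrophils, against 20.9% and 21.7% in monocytes/macrophages. Their part in the order of classes was not tested. In blood the sum was 7163 CPM (7077 to 7249) in 390 neutrophils, 13857 CPM in 370 B cells, 14278 CPM in 733 T cells, 20623 CPM in 140 NK cells, and 21539 CPM in 446 monocytes. The blood lymphocytes thus lay between neutrophils and monocytes, with NK cells close to monocytes. The interval of the 34 blood basophils (13411 to 14395 CPM) covered the values of both B and T cells.

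At the tendon injury site the sum was 7211 CPM (7105 to 7319) in 541 neutrophils and 19472 CPM in 2435 monocytes/macrophages. Stromal, endothelial, glial, and epithelial cells lay above both, with 21340 CPM in 684 fibroblasts/tenocytes, 23241 CPM in 64 Schwann cells, 23377 CPM in 268 endothelial cells, 25464 CPM in 121 mural cells, and 29475 CPM in 183 keratinocytes. Schwann and endothelial cells did not differ beyond their counting intervals. The highest class was 4.09-fold above the lowest in tendon, 3.01-fold in blood, and 2.15-fold in marrow, over 7, 5, and 4 classes of at least 50 cells.

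**Figure D1:**
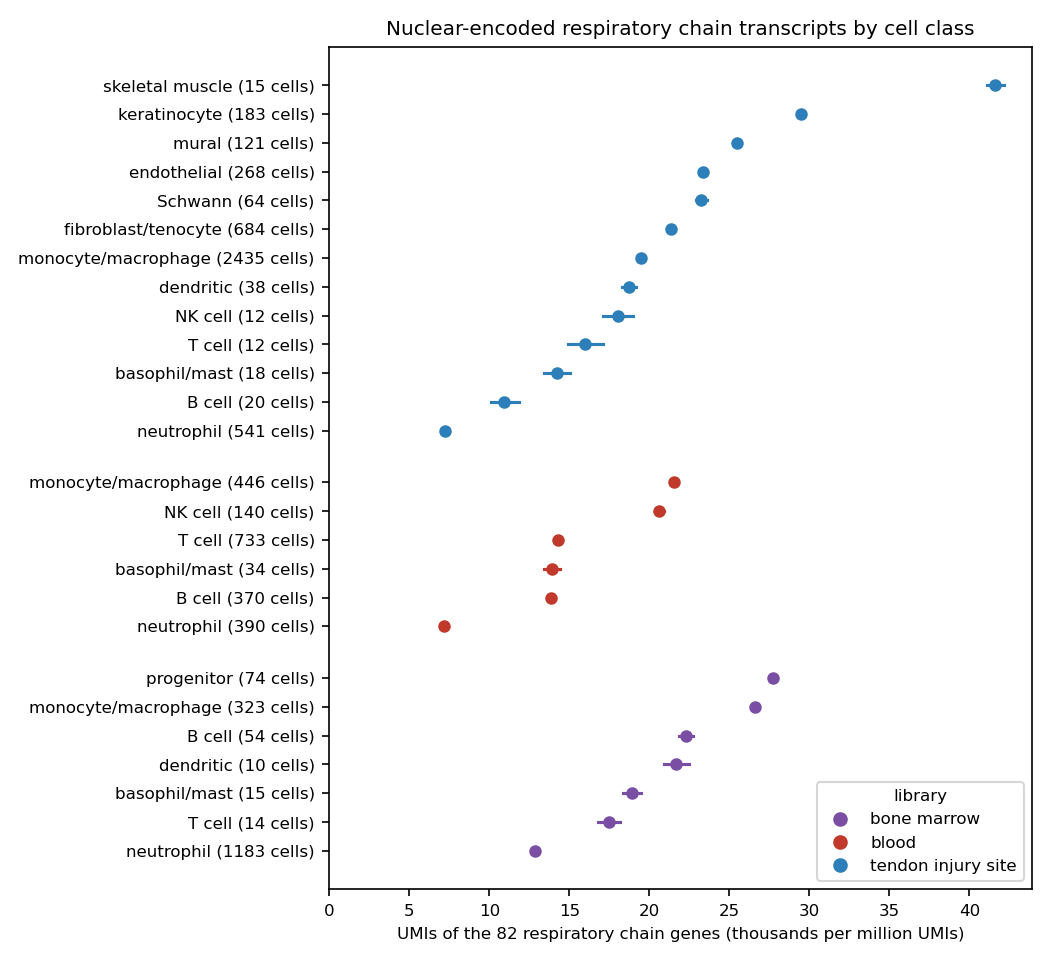
Points give the summed level of the 82 genes in units of 1000 CPM for each cell class, with bars for the 95% counting interval and colors for the library. Neutrophils are lowest in each library, at 12877, 7163, and 7211 CPM in marrow, blood, and tendon, and the 15 tendon cells with skeletal muscle markers are highest, at 41624 CPM.

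Within marrow, neutrophils were divided into 4 gates of maturity by which of the promyelocyte, granule, or mature marker lists scored highest, with granule cells divided further by cell cycle genes. The gates are ranges of a score rather than cell types, and 119 of the 1183 neutrophils lay near a cut. Without these, 48 of the 94 promyelocyte-like and 178 of the 205 mature cells remained. The 82 genes stood at 24742.5 CPM (24588 to 24898) in 94 promyelocyte-like cells, 14250.1 CPM (14181 to 14320) in 308 cycling granule cells, 8869 CPM (8816 to 8923) in 576 resting granule cells, and 6661 CPM (6556 to 6768) in 205 mature cells. Each step of maturity lay below the one before, with intervals that did not overlap. From promyelocyte-like to cycling granule cells 21 of 74 genes were at least 2-fold lower and 0 at least 2-fold higher, against 15.6% and 5.1% of all genes that had at least 100 UMIs in both groups together. From resting granule to mature cells 19 of 73 were at least 2-fold lower and 0 at least 2-fold higher, against 12.5% and 11.4%. The UMIs of the 82 genes per cell were 1039, 529, 186, and 74.2 in the same order, while the median depth of a cell was 41837, 37218, 20650.5, and 11130.0 UMIs.

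Mature marrow neutrophils held 3.71-fold less of these transcripts than promyelocyte-like cells, a log2 ratio of −1.89 (−1.92 to −1.87). Of the 74 genes with at least 100 UMIs in both groups together, 64 were at least 2-fold lower in mature cells and 0 were at least 2-fold higher, while 46.2% of all genes that passed the same minimum were at least 2-fold lower and 21.8% at least 2-fold higher. The median log2 ratio was −2.02 for the 74 genes and −0.76 for all 4722 genes. Genes could pass this minimum through the promyelocyte-like cells alone, as *Ndufv1* did with 278 UMIs there and 10 in mature cells. Ratios of such genes rest on few UMIs in mature cells. The 20 leading genes of each gate took up 29.1% of the UMIs of promyelocyte-like cells and 55.8% of those of mature cells. With the leading genes of both gates left out of the denominator, the log2 ratio of the sum was −1.22, 49 genes were at least 2-fold lower against 36.0% of all genes, and the median of all genes was −0.08.

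Complexes I, III, IV, and V differed between these gates by nearly the same factor and complex II by less. At least 2-fold lower were 32 of 36 measured genes of complex I, 2 of 4 of complex II, 7 of 8 of complex III, 10 of 11 of complex IV, and 13 of 15 of complex V. From promyelocyte-like to mature cells, the complex I sum went from 8489 to 2213 CPM, that of complex III from 2422 to 635 CPM, that of complex IV from 6407 to 1757 CPM, and that of complex V from 7183 to 1915 CPM. Their log2 ratios were −1.94 (−1.98 to −1.90), −1.93 (−2.01 to −1.85), −1.87 (−1.92 to −1.82), and −1.91 (−1.95 to −1.86). The 4 genes of complex II, which is also the succinate dehydrogenase of the tricarboxylic acid cycle, went from 241 to 141 CPM, with a log2 ratio of −0.78 (−0.97 to −0.60), and their share of the UMIs of the 82 genes was 0.976% in promyelocyte-like and 2.11% in mature cells. The ratio of complex II lay close to the median of all genes (−0.76).

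**Figure D2:**
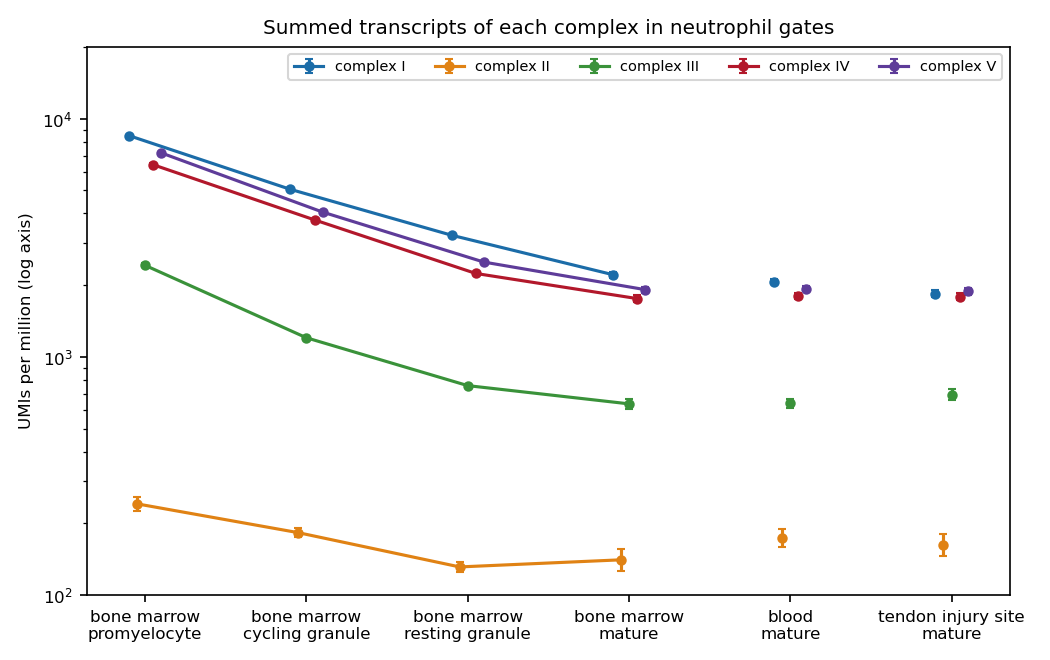
Points give the summed CPM of each complex on a log axis in the 4 marrow neutrophil gates and in mature neutrophils of blood and tendon, with 95% counting intervals. Lines join the marrow gates, and complex II changes least, from 241 to 141 CPM.

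Within complex I the core subunits covered a wide range. *Ndufv1*, which carries the NADH binding site, was at 70.4 CPM in promyelocyte-like, 34.7 CPM in cycling granule, 11.6 CPM in resting granule, and 4.38 CPM in mature cells, a log2 ratio of mature to promyelocyte-like of −4.01 (−5.08 to −3.11). Its iron-sulfur partner *Ndufv2* went from 151 to 26.3 CPM over the same span (−2.53, −2.93 to −2.14). *Ndufs7*, which holds the last iron-sulfur cluster before ubiquinone, went from 134 to 21.9 CPM (−2.62, −3.07 to −2.20). *Ndufs1*, the largest subunit, went from 36.2 to 14.9 CPM (−1.28, −1.87 to −0.74). The intervals of *Ndufv1* and *Ndufs1* did not overlap, so that core subunits of the same enzyme did not share 1 ratio.

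In complex II, the flavoprotein gene *Sdha* was at 51.2 CPM in promyelocyte-like and 27.6 CPM in mature cells, and the iron-sulfur subunit *Sdhb* was at 79.0 and 63.5 CPM. Their log2 ratios were −0.89 (−1.32 to −0.48) and −0.32 (−0.61 to −0.03). The membrane anchors *Sdhc* and *Sdhd* had ratios of −1.81 (−2.67 to −1.04) and −1.03 (−1.37 to −0.70). In complex III, the core protein genes *Uqcrc1* and *Uqcrc2* and the Rieske iron-sulfur protein gene *Uqcrfs1* had ratios of −2.56 (−3.01 to −2.14), −2.08 (−2.52 to −1.66), and −2.28 (−2.68 to −1.90). *Uqcrb*, an accessory subunit gene, was lowest in complex III, at 554 and 34.1 CPM (−4.02, −4.37 to −3.70), and *Uqcrh*, the hinge protein gene, was highest, at 442 and 233 CPM (−0.92, −1.06 to −0.78).

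For complex IV, *Cox5a* was at 722 CPM in promyelocyte-like and 76.2 CPM in mature cells (−3.24, −3.47 to −3.02), and *Cox5b* at 586 and 174 CPM (−1.75, −1.91 to −1.60). *Cox6c* was at 940 and 210 CPM (−2.16, −2.30 to −2.02). These 3 nuclear subunits surround the catalytic core, which is encoded by mitochondrial DNA. In complex V, the catalytic head genes *Atp5a1* and *Atp5b* and the central stalk gene *Atp5c1* had log2 ratios of −2.62 (−2.94 to −2.32), −1.93 (−2.17 to −1.71), and −2.30 (−2.54 to −2.07). The level of *Atp5b* went from 298 to 77.9 CPM.

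At the low end of the 74 genes lay *Ndufa5* and *Atp5g1*. *Ndufa5* (ENSMUSG00000023089, chr6:24518666-24528013, minus strand), an accessory subunit of the complex I arm that faces the matrix, had 685 UMIs in promyelocyte-like cells and 3 in mature cells, which is 174 and 1.31 CPM and a log2 ratio of −7.05 (−9.33 to −5.49). *Atp5g1* (ENSMUSG00000006057, chr11:96068852-96075670, minus strand), 1 of 3 genes for the same subunit c of the ATP synthase rotor ring, had 1871 and 17 UMIs, or 474 and 7.44 CPM (−5.99, −6.78 to −5.31). These positions are those of the whole gene on GRCm38. *Cox6b2*, the isoform known from testis, had 157 and 2 UMIs (−5.51, −8.56 to −3.63). Like *Ndufa5* and *Atp5g1*, it passed the minimum through the promyelocyte-like cells alone. The other rotor ring genes went from 601 to 19.7 CPM for *Atp5g2* (−4.93, −5.39 to −4.51) and from 249.5 to 30.2 CPM for *Atp5g3* (−3.05, −3.42 to −2.69), so that all 3 were lower and *Atp5g3* least. *Ndufa4*, which is counted with complex I by name but is known as a subunit of complex IV, went through 869, 381, 111, and 49.9 CPM over the 4 gates (−4.12, −4.40 to −3.85).

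At the other end, *Cox7a2l* (ENSMUSG00000024248, chr17:83501918-83517330, minus strand), a Cox7a-like factor of respiratory supercomplexes, was at 158 CPM in promyelocyte-like and 184 CPM in mature cells. Its log2 ratio of 0.22 (0.04 to 0.40) was the only one above 0 among the 74 genes. *Sdhb* (−0.32) and *Ndufa8*, an accessory complex I subunit (156 and 116 CPM, −0.43, −0.64 to −0.22), came next. With the leading genes left out of the denominator, 5 genes lay above 0, namely *Atp5l*, *Cox7a2l*, *Ndufa7*, *Ndufa8*, and *Sdhb*. Over the 4 gates *Cox7a2l* went through 158, 121, 143, and 184 CPM, *Sdhb* (ENSMUSG00000009863, chr4:140961203-140979193, plus strand) through 79.0, 69.8, 50.3, and 63.5 CPM, and *Atp5g1* through 474, 102, 32.1, and 7.44 CPM.

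The promoter windows of 2 genes from each end of this range are printed because their levels differed most and least between the same cells. They come from RefSeq on GRCm38.p6, run from 250 bases before to 50 bases after the start of the gene, and are the first window listed for each gene, so that a window can lie at a start inside the gene. Letters in capitals mark matches on either strand to 4 motifs, NRF1 (GCGCA, any base, then GCGC), ETS (CCGGAAG), YY1 (AAGATGGC), and Sp/KLF (GGGCGG). *Ndufa5* (chr6:24527477-24527776, minus strand) had 1 NRF1 and 1 Sp/KLF match, *Atp5g1* (chr11:96075582-96075881, minus strand) had 0 matches, *Cox7a2l* (chr17:83514284-83514583, minus strand) had 2 Sp/KLF matches, and *Sdhb* (chr4:140961021-140961320, plus strand) had 1 ETS and 3 Sp/KLF matches.
Ndufa5: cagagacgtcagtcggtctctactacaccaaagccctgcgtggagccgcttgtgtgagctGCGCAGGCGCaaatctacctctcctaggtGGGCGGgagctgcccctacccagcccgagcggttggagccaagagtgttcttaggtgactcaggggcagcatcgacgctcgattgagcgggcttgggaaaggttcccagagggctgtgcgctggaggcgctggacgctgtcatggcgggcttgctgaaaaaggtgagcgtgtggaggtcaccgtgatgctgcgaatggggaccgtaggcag
Atp5g1: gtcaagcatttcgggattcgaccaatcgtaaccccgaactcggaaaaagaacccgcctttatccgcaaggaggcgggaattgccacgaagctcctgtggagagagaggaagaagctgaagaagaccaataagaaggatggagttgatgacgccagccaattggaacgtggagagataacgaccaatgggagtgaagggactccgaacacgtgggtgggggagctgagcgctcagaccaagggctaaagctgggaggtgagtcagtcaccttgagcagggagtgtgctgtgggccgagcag
Cox7a2l: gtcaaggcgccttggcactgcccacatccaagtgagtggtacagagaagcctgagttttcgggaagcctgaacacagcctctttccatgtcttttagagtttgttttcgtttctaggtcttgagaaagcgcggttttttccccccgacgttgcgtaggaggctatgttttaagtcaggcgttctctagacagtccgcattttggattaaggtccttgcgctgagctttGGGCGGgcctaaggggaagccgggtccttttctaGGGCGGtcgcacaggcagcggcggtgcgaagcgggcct
Sdhb: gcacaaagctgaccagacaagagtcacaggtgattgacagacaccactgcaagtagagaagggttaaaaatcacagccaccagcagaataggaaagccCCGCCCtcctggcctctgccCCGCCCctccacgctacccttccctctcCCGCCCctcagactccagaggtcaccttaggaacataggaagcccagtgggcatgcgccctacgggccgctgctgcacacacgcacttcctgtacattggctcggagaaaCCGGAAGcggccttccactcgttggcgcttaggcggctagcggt

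Of the 82 genes, 66 had a window in the RefSeq table. The NRF1 letters were in 16 of the 66 (24.2%) and in 4.78% of the windows of all 27025 genes, the ETS letters in 15 (22.7%) and 9.12%, the YY1 letters in 8 (12.1%) and 2.88%, and the Sp/KLF letters in 26 (39.4%) and 35.9%. In 1 window, matches to different motifs overlapped. NRF1 and GABP, an ETS factor, are textbook regulators of nuclear respiratory genes. A match is a description of the letters and not a binding site, and no match says only that these letters are not in the window.

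Mature neutrophils were then compared between sites. Cells of this gate did not hold equal levels of the stage markers at each site. The mature markers stood at 7143, 9595, and 13737 CPM in marrow, blood, and tendon, and the granule markers at 9940, 5002, and 2655 CPM. The part of this shift in the ratios was not tested. For the sum of the 82 genes, the 205 mature cells of marrow gave 6661 CPM (6556 to 6768), the 362 of blood 6606 CPM (6516 to 6697), and the 527 of tendon 6372 CPM (6266 to 6479). From marrow to blood the log2 ratio was −0.01 (−0.04 to 0.02), with 0 of 58 genes at least 2-fold lower and 0 at least 2-fold higher, where 1.71% and 3.5% of all genes were. The medians were −0.04 for the 58 genes and 0.06 for all genes. By complex, complex II was somewhat higher in blood (174 against 141 CPM, 0.31, 0.11 to 0.51) and complex I somewhat lower (2065 against 2213 CPM, −0.10, −0.15 to −0.05). The highest single ratios were those of *Sdhd* (0.66, 0.31 to 1.02), *Sdha* (0.51, 0.06 to 0.97), and *Ndufs8* (0.46, −0.15 to 1.10), an iron-sulfur subunit of complex I. The lowest were *Ndufv3* (−0.91, −1.24 to −0.58), *Atp5d* (−0.58, −0.89 to −0.27), and *Ndufb7* (−0.46, −0.65 to −0.27).

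From blood to tendon the log2 ratio of the sum was −0.05 (−0.08 to −0.02). Of 61 genes, 0 were at least 2-fold lower and 2 at least 2-fold higher in the tendon, against 12.1% and 17% of all genes, and the medians were −0.09 and 0.01. The 2 genes were the rotor ring genes *Atp5g1*, with 91 UMIs (41.9 CPM) in tendon and 26 (8.31 CPM) in blood, and *Atp5g2*, with 108 (49.7 CPM) and 51 (16.3 CPM). Their log2 ratios were 2.33 (1.69 to 3.02) and 1.61 (1.12 to 2.12), and *Atp5g3* was at 45.5 and 24.6 CPM, less than 2-fold apart. Genes under the minimum of 100 UMIs were left out of these counts. Among them, *Ndufa5* (2.47, 1.24 to 3.92), *Ndufs3* (2.06, 0.98 to 3.26), and *Ndufc2* (1.89, 1.10 to 2.74) were higher in tendon. So were *Ndufa12* (1.69, 0.83 to 2.605) and *Sdhc* (1.25, 0.52 to 2.01). The ratio of *Atp5sl* (−1.80, −5.03 to 0.435) came from 2 UMIs in tendon and 10 in blood, and its interval included 0. The tendon cells also held 132.5 CPM of the 6 cell cycle markers, 123 CPM of the 10 fibroblast markers, and 122 CPM of the 7 keratinocyte markers, against 3.19, 0, and 11.8 CPM in blood. All 6, 10, and 7 of these markers had a UMI in tendon and 4, 0, and 1 of them in blood. The summed monocyte markers were at 1866 CPM in tendon and 4379 CPM in blood, and the part of these lists in the result was not tested.

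Without the cells near a class or gate cut, the cell cycle markers stood at 19.8 CPM in 496 tendon cells and 3.27 CPM in 356 blood cells. *Atp5g1* was then at 26.2 and 8.50 CPM and *Atp5g2* at 29.1 and 16.7 CPM. The 53 and 26 UMIs left *Atp5g1* below the minimum of 100. Then 0 genes were at least 2-fold higher and 2 lower, against 15.3% and 13% of all genes. The fibroblast and keratinocyte markers were still at 125 CPM each in tendon. The sum of the 82 genes was then 5598 CPM in tendon and 6607 CPM in blood, a log2 ratio of −0.24. With doublets kept, it was 0.07 and 7 of 63 genes were at least 2-fold higher, against 18.4% of all genes. *Ndufb5*, a membrane arm subunit, followed next in the main comparison, at 35.9 and 18.2 CPM (0.98, 0.47 to 1.498), and *Ndufa3* (−0.995, −1.24 to −0.76), *Atp5j2* (−0.75, −0.998 to −0.50), and *Ndufa6* (−0.74, −1.03 to −0.45) were lowest. *Ndufa3* was at 88.3 CPM in tendon and 176 CPM in blood.

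In each tissue, neutrophils were set against the monocytes/macrophages of the same library, which went through the same steps. The blood cells were the mononucleated fraction of a density gradient, so that neutrophils and monocytes may not have been kept alike. The part of this step in the blood ratio was not tested. The log2 ratio of the sum was −1.05 (−1.05 to −1.04) in marrow, −1.59 (−1.61 to −1.57) in blood, and −1.43 (−1.46 to −1.41) in tendon, or 2.06-, 3.01-, and 2.70-fold less in neutrophils. At least 2-fold lower were 48 of 75 genes in marrow (45.6% of all genes), 63 of 74 in blood (51.3%), and 63 of 76 in tendon (55.4%). No gene of the set was at least 2-fold higher, where 7.54%, 9.73%, and 9.2% of all genes were. The medians were −1.16, −1.77, and −1.62 for the set and −0.90, −1.06, and −1.20 for all genes.

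How far neutrophils lay below monocytes depended on the denominator. Without the leading genes, the log2 ratios of the sum were −0.20, −0.82, and −0.98, the genes at least 2-fold lower numbered 3, 37, and 42, against 15.8%, 34.4%, and 43.7% of all genes, and 18, 5, and 1 of the genes lay above 0. A change of denominator moves the log2 ratios of all genes by 1 amount, so that the medians of the set minus those of all genes, −0.26, −0.71, and −0.42, do not depend on it. Of the marrow neutrophils 205 of 1183 were mature, against 362 of 390 in blood and 527 of 541 in tendon. In marrow complex II was lowest (−1.48, −1.53 to −1.42) and complex I highest (−0.93, −0.94 to −0.91), whereas in blood complex III was lowest (−1.74, −1.80 to −1.68) and complex II highest (−1.04, −1.17 to −0.92). In tendon complex I was lowest (−1.53, −1.57 to −1.49) and complex II highest (−1.23, −1.37 to −1.08), but complex V (−1.51, −1.55 to −1.47) overlapped the first and complex IV (−1.25, −1.29 to −1.20) the second within counting error. Complex II was thus lowest in marrow and highest in blood with neutrophils of all gates together. Its place in tendon was not separated from that of complex IV. In marrow its share of the UMIs of the set was 1.29% in all neutrophils, 2.11% in mature ones, and 1.74% in monocytes/macrophages. For mature neutrophils and monocytes/macrophages, the sum was 6661 and 26588 CPM in marrow. It was 6606 and 21539 CPM in blood, and 6372 and 19472 CPM in tendon. Mature neutrophils thus lay furthest below in marrow, where all neutrophils lay closest. The part of maturity in these orders was not tested.

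The genes at the ends of the range differed in part between tissues. Several recurred, such as *Atp5sl*, *Ndufs3*, *Sdhd*, *Ndufb7*, and *Cox6b2*, but none was at the same end in all tissues. In marrow the lowest ratios were those of *Atp5sl* (−3.21, −3.61 to −2.82), the complex I subunit *Ndufs3* (−2.16, −2.31 to −2.02), and *Atp5a1* (−1.85, −1.92 to −1.79), and the highest those of *Ndufv3*, *Ndufb7* (−0.06, −0.12 to −0.01), and *Cox6b2* (−0.40, −0.66 to −0.14). In blood the rotor ring genes *Atp5g1* (−4.13, −4.55 to −3.73) and *Atp5g2* (−3.88, −4.17 to −3.61) were lowest together with *Ndufs3* (−3.88, −4.58 to −3.25), and *Sdhd* (−0.54, −0.76 to −0.33), *Ndufb9* (−0.70, −0.83 to −0.58), and *Ndufb7* (−0.73, −0.86 to −0.60) were highest. *Atp5g1* was at 13.9 CPM in blood neutrophils and 243 CPM in blood monocytes. In tendon, *Cox7a1* (−3.55, −6.60 to −1.69), *Atp5sl* (−3.22, −6.27 to −1.35), and *Ndufc2* (−2.80, −3.14 to −2.48) were lowest, the first 2 of them from 2 neutrophil UMIs each. *Sdhd* (−0.43, −0.68 to −0.18), *Cox6b2* (−0.52, −1.60 to 0.39), and *Cox8a* (−0.57, −0.66 to −0.49) were highest.

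*Ndufv3*, an accessory subunit of the NADH binding part of complex I, lay above the monocyte level in marrow neutrophils and below it elsewhere. It was at 261 CPM in neutrophils and 184 CPM in monocytes/macrophages of marrow (0.51, 0.43 to 0.58), at 67.4 and 153 CPM in blood (−1.18, −1.38 to −0.98), and at 56.4 and 187 CPM in tendon (−1.73, −1.99 to −1.49). Its level in the marrow gates was 461 CPM in promyelocyte-like, 293 CPM in cycling granule, 200.5 CPM in resting granule, and 81.4 CPM in mature cells. Of the 4 gates, the mature one alone lay below the level of marrow monocytes/macrophages.

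**Figure D3:**
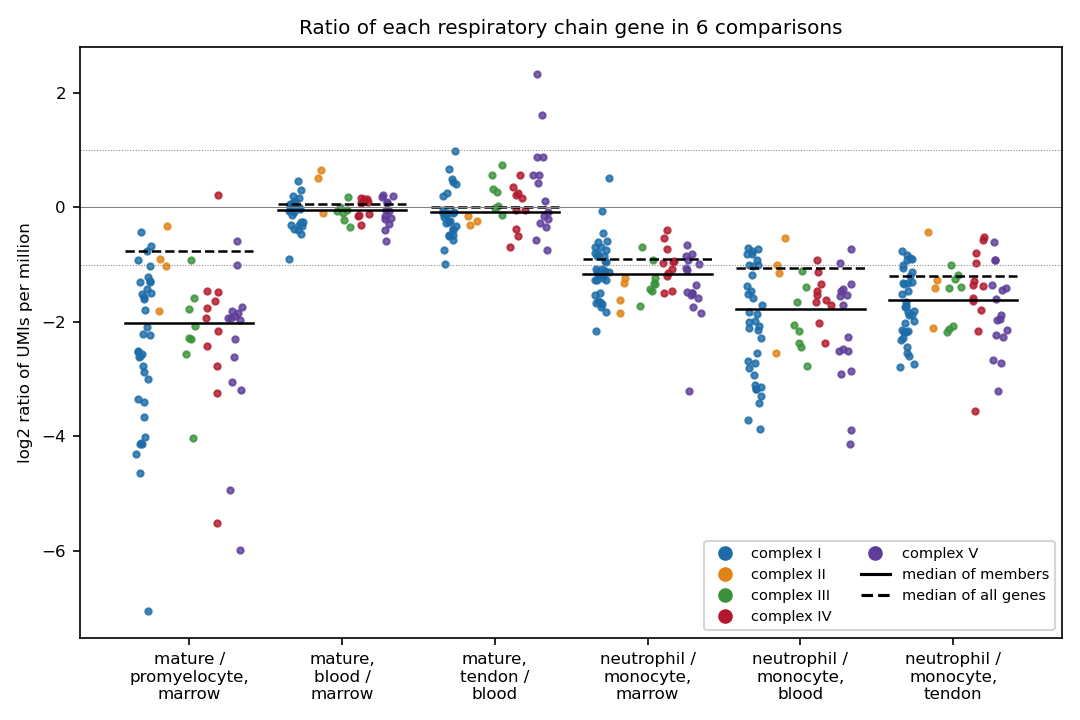
Each point is the log2 ratio of 1 gene with at least 100 UMIs in both groups together, colored by complex, in 6 comparisons. Solid bars are medians of the set and dashed bars medians of all genes, and the medians of the set lie at −2.02 for the marrow stages and at −0.04 and −0.09 for mature cells of blood against marrow and of tendon against blood.

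The mitochondrially encoded mRNAs of the same complexes gave a second readout that took no part in the choice of genes. Across the marrow stages the sums of both sets fell by nearly the same factor, but the median log2 ratio was −2.70 for the 13 mitochondrially encoded mRNAs and −2.02 for the nuclear genes. The 13 mRNAs went from 24804 CPM in promyelocyte-like cells to 6608 CPM in mature cells, and the nuclear genes from 24742.5 to 6661 CPM. The ratio of nuclear to mitochondrially encoded UMIs was 0.998 in promyelocyte-like, 1.09 in cycling granule, 1.14 in resting granule, and 1.01 in mature cells, so that from the first to the last gate the log2 difference was 0.02 (−0.02 to 0.05). With cells weighted equally it was −0.21. Single mitochondrial genes did not move alike, from *mt-Co1* at 4730 and 2811 CPM (−0.75, −0.79 to −0.71) to *mt-Nd3* at 469 and 21.9 CPM (−4.42, −4.86 to −4.02).

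Between sites the mitochondrial mRNAs of mature neutrophils differed more than the nuclear ones. They stood at 6608 CPM in marrow, 7809 CPM in blood, and 11953 CPM in tendon, and the nuclear to mitochondrial ratio was 1.01 (0.985 to 1.03), 0.846 (0.830 to 0.862), and 0.533 (0.522 to 0.544). From blood to tendon, 7 of 12 mitochondrial mRNAs were at least 2-fold higher, against 17% of all genes, among them *mt-Nd2* at 67.7 and 448 CPM (2.73, 2.51 to 2.95), while *mt-Co1* was at 3229 and 3152 CPM (−0.04, −0.08 to 0.01). The filter on mitochondrial UMIs bears on this ratio directly. From blood to tendon its log2 difference was −0.67 (−0.71 to −0.63), and it was −0.43 with at most 10% mitochondrial UMIs and 500 genes per cell and −1.59 with no filter.

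Among the other classes of blood the ratio was lowest in B and T cells. Blood monocytes had 0.651 nuclear UMIs per mitochondrial UMI (0.647 to 0.655), NK cells 0.658 (0.646 to 0.670), T cells 0.326 (0.324 to 0.329), and B cells 0.246 (0.243 to 0.249). NK cells and monocytes did not differ beyond their intervals. Blood B and T cells thus had fewer nuclear but a higher CPM of mitochondrial transcripts than monocytes, with 56259, 43735, and 33102 CPM of the latter. In tendon the ratio was 0.490 in monocytes/macrophages, 0.610 in fibroblasts/tenocytes, and 0.722 in keratinocytes.

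**Figure D4:**
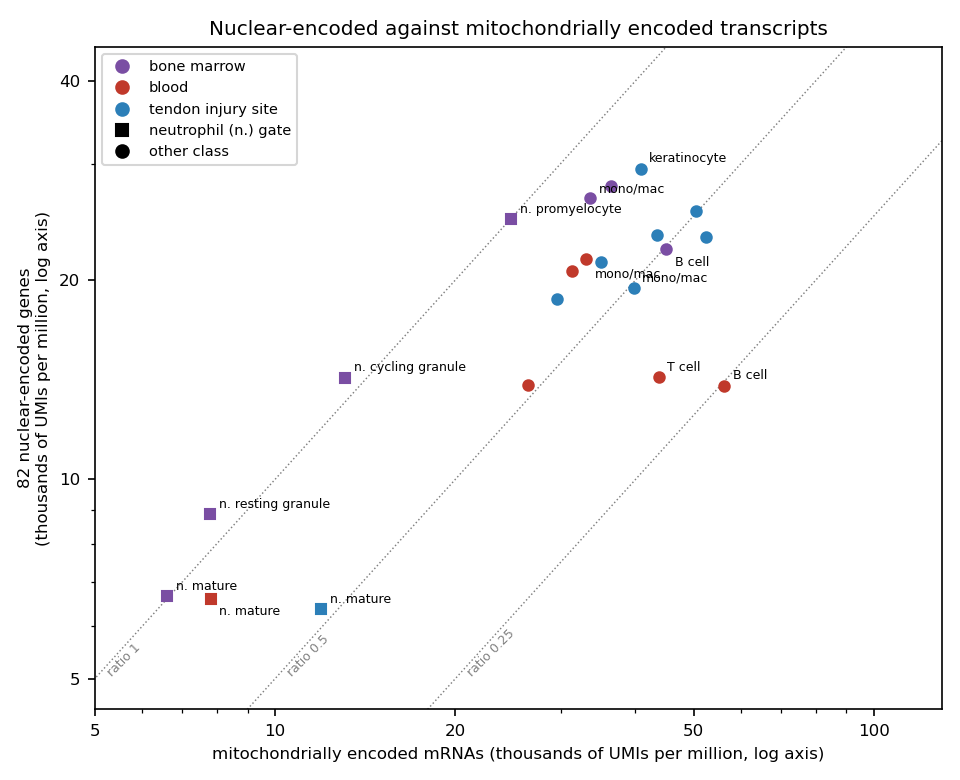
Each point is a cell class or neutrophil gate of at least 30 cells, with the CPM of the mitochondrially encoded mRNAs on the horizontal and of the 82 nuclear genes on the vertical axis, both in units of 1000 CPM on log axes. Dotted lines mark ratios of 1, 0.5, and 0.25, and marrow neutrophil gates lie near 1 while blood B cells lie at 0.246.

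Several subunits of complexes I and IV have isoforms known from particular tissues. *Ndufa4l2*, a relative of *Ndufa4* known as hypoxia-induced (ENSMUSG00000040280, chr10:127514967-127517154, plus strand), had 0 UMIs in marrow and blood and 6777 in tendon. There it was at 466 CPM (442 to 490) in mural cells, 165 CPM (156 to 174) in keratinocytes, 136 CPM (131 to 140) in fibroblasts/tenocytes, and 44.3 CPM (39.8 to 49.3) in endothelial cells, against 1.5 CPM in monocytes/macrophages and 1.65 CPM in neutrophils. *Ndufa4* itself was lower in mural cells, at 312 CPM (293 to 332), than in endothelial cells (619 CPM), fibroblasts/tenocytes (634 CPM), or keratinocytes (1171 CPM).

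*Cox6a2* (ENSMUSG00000030785, chr7:128205435-128206387, minus strand), the heart and muscle form of the complex IV subunit 6a, was at 50.1 CPM (33.3 to 72.4) in the 15 tendon cells with skeletal muscle markers, from 28 UMIs in 5 cells. Its highest level lay elsewhere, at 1125 CPM (957 to 1315) in 10 marrow cells and 224 CPM (180 to 277) in 38 tendon cells named dendritic. The dendritic markers *Ccr7* and *Ccl22* had 0 UMIs in the 10 marrow cells. *Siglech*, a marker of plasmacytoid dendritic cells, was used to divide all cells after this was seen. In marrow, 51 of 1813 cells had a *Siglech* UMI and held 96.9% of the 1031 *Cox6a2* UMIs. The 74 marrow progenitors held 155 of the 1031, of which 135 were in the 11 progenitors with a *Siglech* UMI. In blood, 9 of 2146 cells held 91.7% of 121 UMIs, and in tendon 24 of 4780 cells held 69.5% of 315.

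In cells with a *Siglech* UMI, *Cox6a2* stood in marrow at 1157 CPM (1086 to 1231), against 0.673 CPM in all other cells. In blood the 2 levels were 939 CPM (773 to 1131) and 0.460 CPM, and at the tendon injury site they were 984 CPM (858 to 1124) and 1.14 CPM. The intervals of the 3 high levels overlapped. Many of these cells matched no class, since 22 of the 51 marrow cells were among the unassigned. *Cox6a1*, the ubiquitous form, was found in every class, from 97.8 CPM in mature blood neutrophils to 461 CPM in marrow monocytes/macrophages.

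*Cox8b*, another muscle form, had 5 UMIs in the muscle-marked cells (8.95 CPM, 2.91 to 20.9) and 0.784 CPM in fibroblasts/tenocytes. *Cox7a1*, likewise known from muscle, was at 10.7 CPM (3.94 to 23.4) in the muscle-marked cells, 15.8 CPM (8.16 to 27.6) in Schwann cells, and 9.65 CPM (8.59 to 10.8) in tendon monocytes/macrophages, which do not differ beyond their intervals. *Cox6b2* was highest in 15 marrow basophils/mast cells (84.6 CPM, 51.7 to 131), followed by 10 marrow dendritic cells (42.5 CPM, 15.6 to 92.4), promyelocyte-like cells (39.8 CPM, 33.8 to 46.5) and progenitors (39.1 CPM, 32.7 to 46.5). *Cox7b2* and *Cox8c* had at most 1 UMI in any class. *Atp5sl* stood apart by lineage, at 96.2 CPM (83.8 to 110) in blood B cells, 30.2 CPM (26.2 to 34.7) in blood T cells, and 3.19 CPM (1.53 to 5.88) in mature blood neutrophils.

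**Figure D5:**
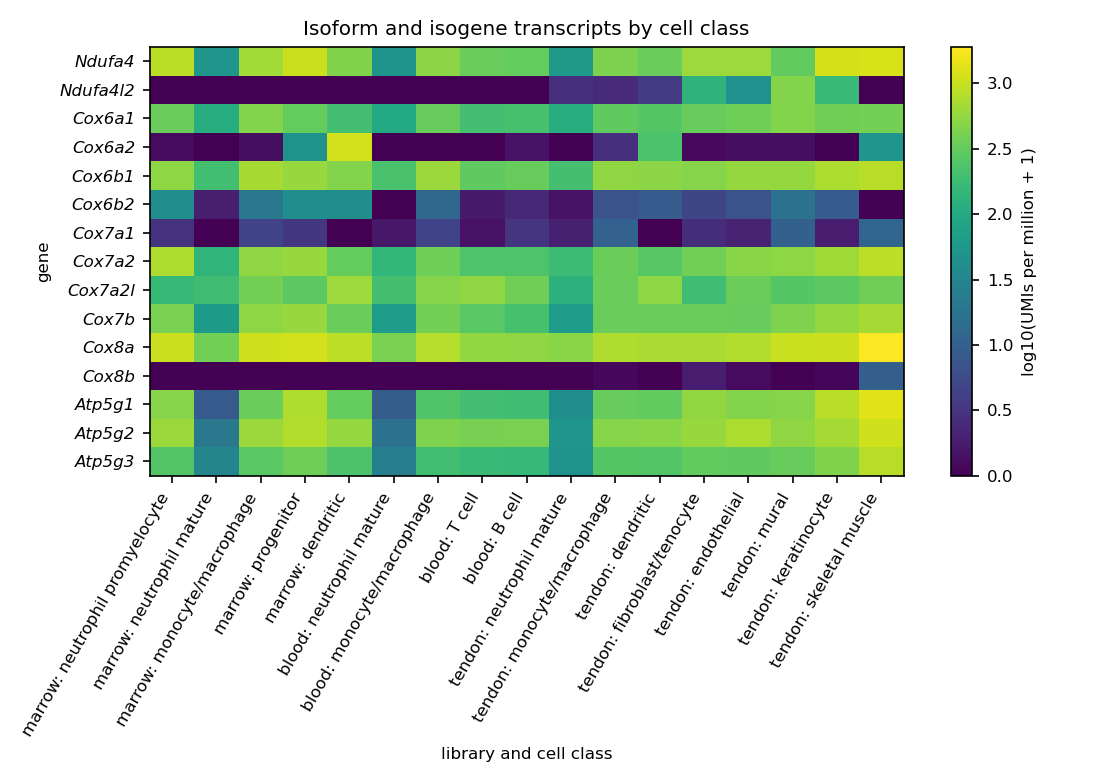
Color gives log10 of CPM plus 1 for isoform and isogene transcripts (vertical axis) in cell classes of the 3 libraries (horizontal axis). *Ndufa4l2* is seen in tendon stromal classes with 466 CPM in mural cells, *Cox6a2* in dendritic cells, marrow progenitors, and muscle-marked cells, and *Atp5g1* and *Atp5g2* are lowest in mature neutrophils of marrow and blood.

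Cells with skeletal muscle markers and keratinocytes were compared with fibroblasts/tenocytes, comparisons that were chosen after the levels were seen. The 15 muscle-marked cells were named by 8 muscle markers, so that their high level of these is no independent check. Among the markers, *Acta1* was at 1532 CPM and *Myod1* at 211 CPM. *Ckm* was at 107 CPM, *Myh4* at 122 CPM, *Actn3* at 127 CPM, and *Pax7* at 35.8 CPM. The 15 cells stood at 41624 CPM (41091 to 42162) of the 82 genes, 1.95-fold above fibroblasts/tenocytes (log2 ratio 0.96, 0.95 to 0.98). Of 76 genes, 33 were at least 2-fold higher and 1 at least 2-fold lower, against 9.65% and 25% of all genes. The lower gene was *Ndufa4l2*, with 0 UMIs in these cells. Complexes II, III, and V had log2 ratios of 1.11 (0.97 to 1.24), 1.14 (1.08 to 1.19), and 1.10 (1.06 to 1.13), and complex I was lowest (0.74, 0.71 to 0.78). *Atp5b* was at 1392 CPM in these cells and 583 CPM in fibroblasts/tenocytes, and *Cox8a* at 1892 and 728 CPM. When cells were named by clusters, these 15 cells fell in a cluster named monocyte/macrophage. In keratinocytes 3 of 77 genes were at least 2-fold higher and 0 at least 2-fold lower, against 10.1% and 23.5% of all genes, with a log2 ratio of the sum of 0.47 (0.46 to 0.47). These were *Uqcrc1* (267 against 102 CPM), *Atp5sl* (10.4 against 4.23 CPM), and *Cox6b2* (7.96 against 3.84 CPM).

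Cycling cells held more of these transcripts than resting cells of the same class, a comparison also chosen after the values were seen. In marrow monocytes/macrophages the sum was 27560.5 CPM in 175 cycling and 24249.8 CPM in 148 resting cells (log2 ratio 0.19, 0.17 to 0.20), and in tendon 22772 CPM in 89 cycling and 19245 CPM in 2346 resting cells (0.24, 0.23 to 0.26). No gene was at least 2-fold apart in either tissue, where 12.2% and 11.4% of all genes were at least 2-fold higher and 4.14% and 5.41% at least 2-fold lower. All genes were shifted the same way, with median log2 ratios of 0.11 in marrow and 0.16 in tendon, against 0.23 and 0.28 for the set. Among granule neutrophils of marrow the difference was larger, at 0.68 (0.67 to 0.70). In cycling cells 24 of 74 genes were at least 2-fold higher, against 27.9% of all genes, and 0 at least 2-fold lower, against 8.44%. The median log2 ratios were 0.73 for the 74 genes and 0.34 for all genes. These granule gates also differed in stage markers. The promyelocyte markers were at 3593 CPM in cycling and 256 CPM in resting granule cells, and the mature markers at 731 and 2919 CPM. Cell cycle and maturity cannot be told apart in this comparison. From marrow to blood monocytes the log2 ratio of the sum was −0.30 (−0.31 to −0.30), and from blood to tendon monocytes/macrophages it was −0.15 (−0.15 to −0.14). The medians were −0.36 for the set and −0.14 for all genes in the former, and −0.125 and −0.01 in the latter. In the former 0 of 75 genes were at least 2-fold apart, against 5.74% of all genes higher and 9.14% lower. In the latter 1 of 76 genes was at least 2-fold higher, *Cox7a1* (9.65 against 3.55 CPM), and 2 were at least 2-fold lower, *Atp5sl* (7.64 against 21.3 CPM) and *Cox6b2* (5.89 against 11.8 CPM), against 15% and 10.6% of all genes.

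The other genes of the pathway were taken from lists of subunits outside the symbol rule, assembly factors, the tricarboxylic acid cycle, regulators of mitochondrial biogenesis, and mitochondrial import and structure. In mature against promyelocyte-like marrow neutrophils, at least 2-fold lower were 5 of 5 measured subunits outside the rule, 5 of 8 assembly factors, 10 of 12 genes of the tricarboxylic acid cycle, 2 of 3 regulators, 7 of 8 genes of import and structure, and 12 of 13 mitochondrially encoded mRNAs, against 46.2% of all genes, and 0 were at least 2-fold higher, against 21.8%. The shares of the assembly factors and regulators lay nearest to that of all genes. *Cycs*, which encodes cytochrome c, went from 203 to 14.0 CPM (−3.86, −4.42 to −3.35), and *Ndufab1*, the acyl carrier protein of complex I, from 717 to 16 UMIs (−4.70, −5.51 to −3.99). *Tfam*, the packaging and transcription factor of mitochondrial DNA, had 110 UMIs in promyelocyte-like and 2 in mature cells (−4.99, −8.06 to −3.11). Like *Cycs* and *Ndufab1*, it passed the minimum through the promyelocyte-like cells alone. *Nrf1* had 76 and 35 UMIs (−0.33, −0.95 to 0.27). The copper chaperone gene *Cox17* (170 and 125 CPM, −0.44, −0.65 to −0.24) and the succinate dehydrogenase assembly factor *Sdhaf2* (24.6 and 25.4 CPM, 0.05, −0.45 to 0.53) were among the genes that stayed within 2-fold.

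Between mature neutrophils of blood and marrow, few genes of these lists passed the minimum. They were 2 of 6 subunits outside the rule, 4 of 28 assembly factors, 5 of 14 tricarboxylic acid cycle genes, 0 of 9 regulators, and 4 of 10 import genes. Of these, 0 were at least 2-fold apart, where 1.71% of all genes were lower and 3.5% higher. From blood to tendon 1 of 4 assembly factors, *Ndufaf7* (29.9 against 11.2 CPM), and 1 of 5 import genes, *Tomm20* (64.0 against 23.6 CPM), were at least 2-fold higher. Of all genes 17% were. These counts are too small to set apart from the shares of all genes. Against monocytes of the same library, at least 2-fold lower in neutrophils were 9 of 14 genes of the tricarboxylic acid cycle in marrow, 12 of 14 in blood, and 11 of 14 in tendon, where 45.6%, 51.3%, and 55.4% of all genes were. For assembly factors these counts were 18 of 27, 11 of 15, and 22 of 28, with *Ndufaf7* at least 2-fold higher in tendon, and for import and structure 6 of 9, 8 of 9, and 7 of 9. The remaining lists gave 4 of 5, 5 of 5, and 4 of 5 subunits outside the rule and 3 of 5, 2 of 4, and 4 of 7 regulators, the last of which are close to the shares of all genes.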

How the data were processed

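Single-cell RNA was measured in 1 library per tissue with the single cell 3′ v3 protocol of 10x Genomics. The deposited values are UMI counts for each gene in each barcode, which per the file headers were made with Cell Ranger 5.0.1 and per the submitters' processing notes aligned to mm10, and which are not normalized. How many mice went into each library was not found in the labels or methods.

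Barcodes with under 200 genes or over 20% mitochondrial UMIs were removed, which took out 15, 57, and 651 barcodes of marrow, blood, and tendon. Doublets were scored within each library with scanpy 1.11.5 (Python 3.11.15, numpy 2.4.6, scipy 1.17.1, pandas 2.3.3) and the highest scores removed at 0.8% per 1000 cells (27, 38, and 198 cells). Cells were named one by one by the highest of the mean scores of marker lists, with a score of at least 0.2 and a lead of at least 0.05. Neutrophil gates are the highest of 3 stage scores, and a cycling score above 0.2 set cycling cells apart.

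UMIs were summed over the cells of a class and divided by their total. Intervals are exact Poisson intervals for a level and exact binomial intervals of the UMI split for a ratio. Since PCR duplicates were collapsed by UMI but cells of 1 library are not replicates, intervals cover counting error only, and no test was made. Genes entered a comparison with at least 100 UMIs in both groups together. A gene can thus enter through the group where it is high, and its ratio then rests on few UMIs in the other group. A fold of 2 is a description of size. Where a group was at 0, a floor of 3 counts was used. Gene positions came from GENCODE on GRCm38 and promoter windows from RefSeq on GRCm38.p6.

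Named were the core subunits of each complex, the tissue isoforms, and in each comparison the 3 genes with the highest and the 3 with the lowest ratio. Other genes of the set that are named, such as *Uqcrb* and *Uqcrh*, were chosen after their values were seen. The genes, lists, and comparisons were chosen with earlier results of these data known. Ratios and intervals were tried on counts simulated with counting error alone, which is the error that the intervals assume. That trial cannot show how they hold under variation between cells. The alternatives tried were other filters on cells, doublets kept, other denominators, equal weight for cells, and other ways to name cells. The values of 1 member are not reported here by name.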

Additional observations from a re-analysis of the deposited data

Results flagged for a closer look

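*Ndufv3* differed in direction between libraries when neutrophils were set against monocytes/macrophages, with log2 ratios of 0.51 in marrow, −1.18 in blood, and −1.73 in tendon, and this difference between libraries was not tested. The barcodes that the filter left out were in no comparison and still held UMIs of the 82 genes. In marrow, 15 such barcodes stood at 4235 CPM (3652 to 4883) of these genes, in blood 57 stood at 3402 CPM (3006 to 3835), and in tendon 651 stood at 4361 CPM (4261 to 4462). Mitochondrial UMIs made up 31.3%, 23.8%, and 58.4% of these barcodes' UMIs, and with them left out of the total the levels were 6168, 4465, and 10494 CPM.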

How the results depend on the processing

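No paired analysis was possible because each tissue has 1 library. With the 20 leading genes of either group left out of the denominator, the log2 ratio of the sum was −1.22 for the marrow stages. It was −0.12 for mature cells of blood against marrow, with 1 gene at least 2-fold lower, against 2.24% of all genes. For tendon against blood it was −0.31, with 2 genes at least 2-fold lower and 2 higher, against 19.1% and 13% of all genes. For neutrophils against monocytes/macrophages it was −0.20 in marrow, −0.82 in blood, and −0.98 in tendon. There 3, 37, and 42 genes were at least 2-fold lower, against 15.8%, 34.4%, and 43.7% of all genes. Without mitochondrially encoded UMIs in the denominator the ratios were −1.92 for the stages and −1.08, −1.63, and −1.47 against monocytes/macrophages. With cells named by clusters the ratios were −1.79 for the stages and −1.05, −1.62, and −1.79 against monocytes/macrophages. The ratio for nuclear to mitochondrial transcripts over the stages was −0.035. Tendon against blood was −0.20, with 2 genes lower and 0 higher, against 12.4% and 16.4% of all genes. Without cells near a cut the ratio for the stages was −1.89, from 178 mature and 48 promyelocyte-like cells. There 62 of 72 genes were at least 2-fold lower, against 42.2% of all genes. Under the same setting the ratios were −1.10 and −1.56 against monocytes/macrophages in marrow and tendon, and −0.091 for nuclear to mitochondrial transcripts. Tendon against blood was then −0.24, with 2 genes lower and 0 higher, against 13% and 15.3% of all genes. With cells weighted equally the ratios were −1.23 and −1.64 against monocytes/macrophages in marrow and tendon, and −0.21 for nuclear to mitochondrial transcripts. Tendon against blood was then −0.21, with 1 gene lower and 1 higher, against 14.3% and 16.1% of all genes. With doublets kept, tendon against blood was 0.072 and neutrophils against monocytes/macrophages in tendon −1.34. With no filter on cells 1 gene was at least 2-fold lower in tendon than in blood and 2 higher, against 12.5% and 17% of all genes. The small ratio of mature neutrophils between tendon and blood thus changed sign with doublets kept, that between blood and marrow with cells weighted equally (0.015) or named by clusters (0.004), and those against monocytes/macrophages and between stages stayed negative under the 8 alternatives. Why the values moved was not tested. Of 1391 values of single genes under these alternatives, 1142 lay within the counting interval of the reported value, 249 lay outside it, and 0 with a 2-fold difference changed sign. Depth limited the tendon most, where a mature neutrophil held a median of 3529 UMIs.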
